A study of Homo sapiens with 4 samples.

Results

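Proteasome genes were compared in MOLM-13, a line of human acute myeloid leukaemia cells with a KMT2A-MLLT3 fusion, after CRISPR targeting of KAT6A, which encodes a histone lysine acetyltransferase. Members were taken by symbol, as PSM followed by a letter from A to G and a number, which gave 48 of the 27800 gene symbols measured by RNA sequencing. Of these, 46 had a mean of at least 1 TPM (a share of the library corrected for transcript length and scaled to a total of 1000000) and were tested. The 4 libraries were 2 EV, transduced with lentivirus carrying CRISPR-Cas9 and the vector labelled EV, and 2 sgKAT6A, transduced with lentivirus carrying CRISPR-Cas9 and sgKAT6A, so that all of them carried Cas9. The number of guides, the harvest time, and whether the cells were a clone or replicates were separate transductions is not stated in the labels, so each p-value reflects the spread between these libraries alone, which may be technical. In bulk RNA, fewer cells of a type and less RNA per cell cannot be told apart.

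The proteasome degrades proteins tagged with ubiquitin. Its core particle, the 20S, is a stack of rings built from alpha subunits (PSMA genes) outside and beta subunits (PSMB genes) inside, and PSMB5, PSMB6 and PSMB7 carry the proteolytic sites. The regulatory particle, the 19S, holds ATPases (PSMC genes) that unfold substrates and other subunits (PSMD genes) that bind ubiquitin and remove it. Interferon induces PSMB8, PSMB9 and PSMB10, which replace PSMB5, PSMB6 and PSMB7 in newly made particles and form the immunoproteasome. Blood cells often express these genes without added interferon. Interferon also induces PSME1 and PSME2, whose products form the activator PA28, and the peptides made are loaded on MHC class I molecules.

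KAT6A was at 16.2 (replicate 1) and 16.7 TPM (replicate 2) in EV, against 12.2 and 10.8 TPM in sgKAT6A, lower in both targeted libraries (log2 difference -0.48 ± 0.13 SE, limma adjusted p = 0.784), although RNA does not show how much protein was lost. The leukaemic myeloid genes CD33, SPI1 and CEBPA were at 99.2 to 519 TPM in every library, whereas CD34 was listed at 0 in all 4. Of the 9 leukaemic myeloid genes tested, 3 were lower without overlap (FLT3, MYB and HOXA9), where 23.2% of all genes tested were. FLT3 was at 61.0 and 59.4 TPM with EV and 46.2 and 42.9 TPM with sgKAT6A, and ANPEP ranged from 1.75 to 11.1 TPM. Of the T cell, B cell, dendritic, epithelial and fibroblast markers, only CD3D and KRT18 had a mean of at least 1 TPM, while the globin genes HBB and HBA1 were at 38.6 to 201 TPM with overlapping groups and GATA1 stayed under 0.24 TPM. The sgKAT6A replicate 2 library stood apart, with 340 TPM of the 18S ribosomal RNA symbol RNA18SN5 against 10401 to 13751 TPM in the others. Of the TPM total, 81.1% and 81.5% fell to tested protein-coding genes in EV, against 77.8% and 78.0% in sgKAT6A. Read depth is unknown, since TPM retains none.

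Most proteasome genes were lower in sgKAT6A, by small amounts, and PSMB9 alone was higher in both sgKAT6A libraries than in either EV library. Of the 46 members tested, 35 were lower without overlap, meaning that each sgKAT6A library lay below each EV library, where 23.2% of all 12603 genes tested and 25.1% of protein-coding genes were. The sole member that was higher without overlap was PSMB9, a pattern held by 14.4% of all genes and 13.5% of protein-coding genes. A lower mean in sgKAT6A was seen for 44 members, and for 52.6% of all genes. The members' median log2 difference was -0.25, against -0.02 for all genes tested and -0.03 for protein-coding genes. Summed over the 48 members, the level was 5005 and 4958 TPM in the EV libraries and 4482 and 4047 TPM in the sgKAT6A libraries, a ratio of means of 0.856. No single member passed. With limma, 0 of 46 members had an adjusted p under 0.05, as for all genes (0%), and 4 had an unadjusted p under 0.05, 3 lower (PSMG3, PSMD13 and PSMA6) and 1 higher (PSMB9), where 3.64% of all genes did (1.98% lower and 1.67% higher).

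The sgKAT6A libraries were less alike than the EV libraries, for these genes and for all genes tested. The median absolute log2 difference between replicates over the members was 0.09 in EV and 0.21 in sgKAT6A. Over all genes tested it was 0.19 and 0.25. The signed median over the members, in which opposite differences cancel, was -0.01 in EV and -0.20 in sgKAT6A (replicate 2 minus replicate 1). Without sgKAT6A replicate 2 the members' median difference was -0.16, and 36 members had the remaining sgKAT6A library below both EV libraries, where 33.1% of all genes did. With EV replicate 1, EV replicate 2 or sgKAT6A replicate 1 left out in turn, 37, 41 and 42 members were lower, where 37.7%, 35.7% and 44.1% of all genes were. With protein-coding genes alone, rescaled to a total of 1000000, the median was -0.19 and 29 members were lower without overlap, where 16.2% of genes were. Median-of-ratios scaling gave 32 members, where 18% of genes were lower, and quantile normalization 27 members, where 19.4% were.

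**Figure D1:**
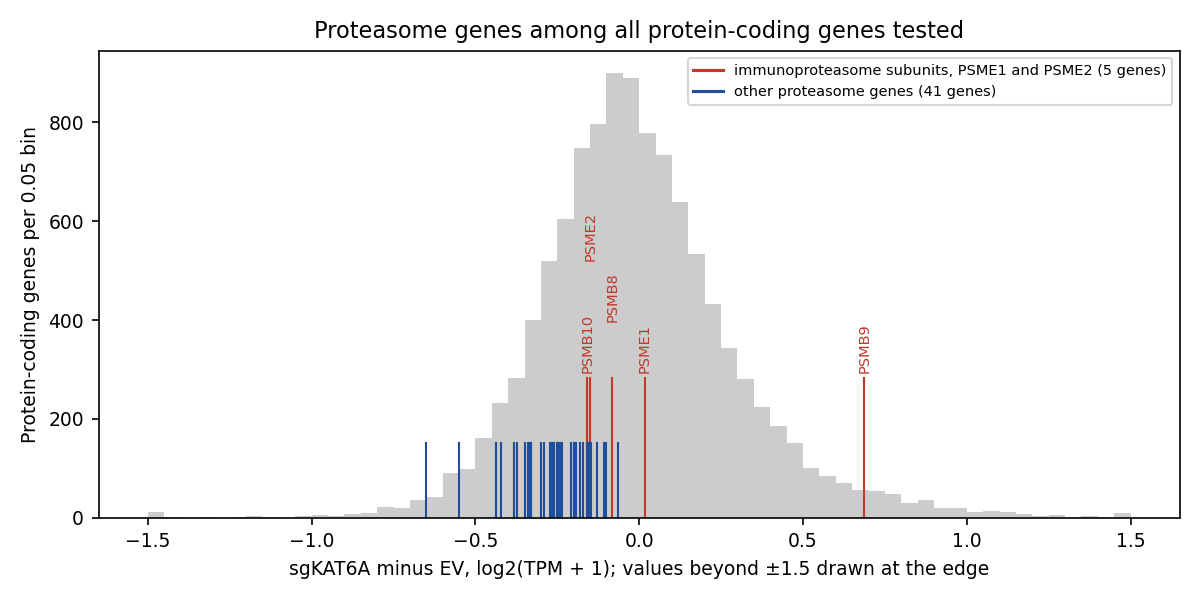
Histogram of the difference between sgKAT6A and EV on the log2(TPM + 1) scale for the protein-coding genes tested, with each proteasome gene drawn as a vertical line (red for PSMB8, PSMB9, PSMB10, PSME1 and PSME2, blue for the other 41). The blue lines lie between -0.65 and -0.07, PSME1 lies at 0.02 and PSMB9 lies apart at 0.69.

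The alpha ring genes form the gate of the core particle. Of the 7, 6 were lower in sgKAT6A without overlap, where 23.2% of all genes were. The 7 had a median difference of -0.26. PSMA6 was at 204 (replicate 1) and 207 TPM (replicate 2) in EV, against 172 and 153 TPM in sgKAT6A. PSMA3 had the most negative difference of the ring, at 172 and 173 TPM in EV against 148 and 123 TPM in sgKAT6A (-0.35 ± 0.14 SE, limma adjusted p = 0.784). PSMA1 was the exception, because its EV libraries, at 156 and 187 TPM, enclosed the sgKAT6A values of 157 and 160 TPM. PSMA8, the testis form of an alpha subunit, was listed at 0 in all 4 libraries.

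The beta subunits without proteolytic activity, PSMB1 to PSMB4, were all lower without overlap, where 23.2% of all genes were. PSMB1 had the highest level of any member, at 348 and 346 TPM with EV and 315 and 273 TPM with sgKAT6A. PSMB3 was at 254 and 252 TPM in EV, against 216 and 203 TPM in sgKAT6A (log2 difference -0.27 ± 0.11 SE, limma adjusted p = 0.784). PSMB2 was at 29.7 and 29.1 TPM against 26.5 and 20.2 TPM. Subunits that occur in equal numbers in a particle had different RNA levels, as PSMB1 averaged 347 ± 1.99 TPM and PSMB2 29.4 ± 0.385 TPM in EV (SD, n = 2 each).

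In the regulatory particle, all 6 ATPase genes were lower without overlap, where 23.2% of all genes were. The 6 had a median difference of -0.18. PSMC3 was at 118 and 118 TPM with EV and 101 and 86.0 TPM with sgKAT6A, the most negative difference of the ATPases (-0.34 ± 0.13 SE, limma adjusted p = 0.784).

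Of the 11 other regulatory subunits, 9 were lower without overlap, where 23.2% of all genes were. The 11 had a median difference of -0.30. PSMD14 encodes the deubiquitinase that removes ubiquitin chains from substrates, and was at 50.2 and 52.5 TPM in EV, against 43.1 and 32.9 TPM in sgKAT6A. PSMD13, a lid subunit, was at 87.9 and 87.5 TPM with EV and 70.7 and 58.9 TPM with sgKAT6A, a difference of -0.44 ± 0.14 (SE, limma adjusted p = 0.784). PSMD11, a lid scaffold subunit, was at 33.6 and 34.3 TPM against 29.2 and 21.5 TPM. For each of these 3 genes the EV libraries lay close together and sgKAT6A replicate 2 was the lowest library.

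PSMD4 and PSMD8 were the 2 regulatory subunits whose groups overlapped. PSMD4 encodes a ubiquitin receptor, and was at 130 and 148 TPM in EV, against 121 and 145 TPM in sgKAT6A. Its difference of -0.07 changed sign without EV replicate 2 (0.02), without sgKAT6A replicate 1 (0.07) and with quantile normalization (0.0015).

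**Figure D2:**
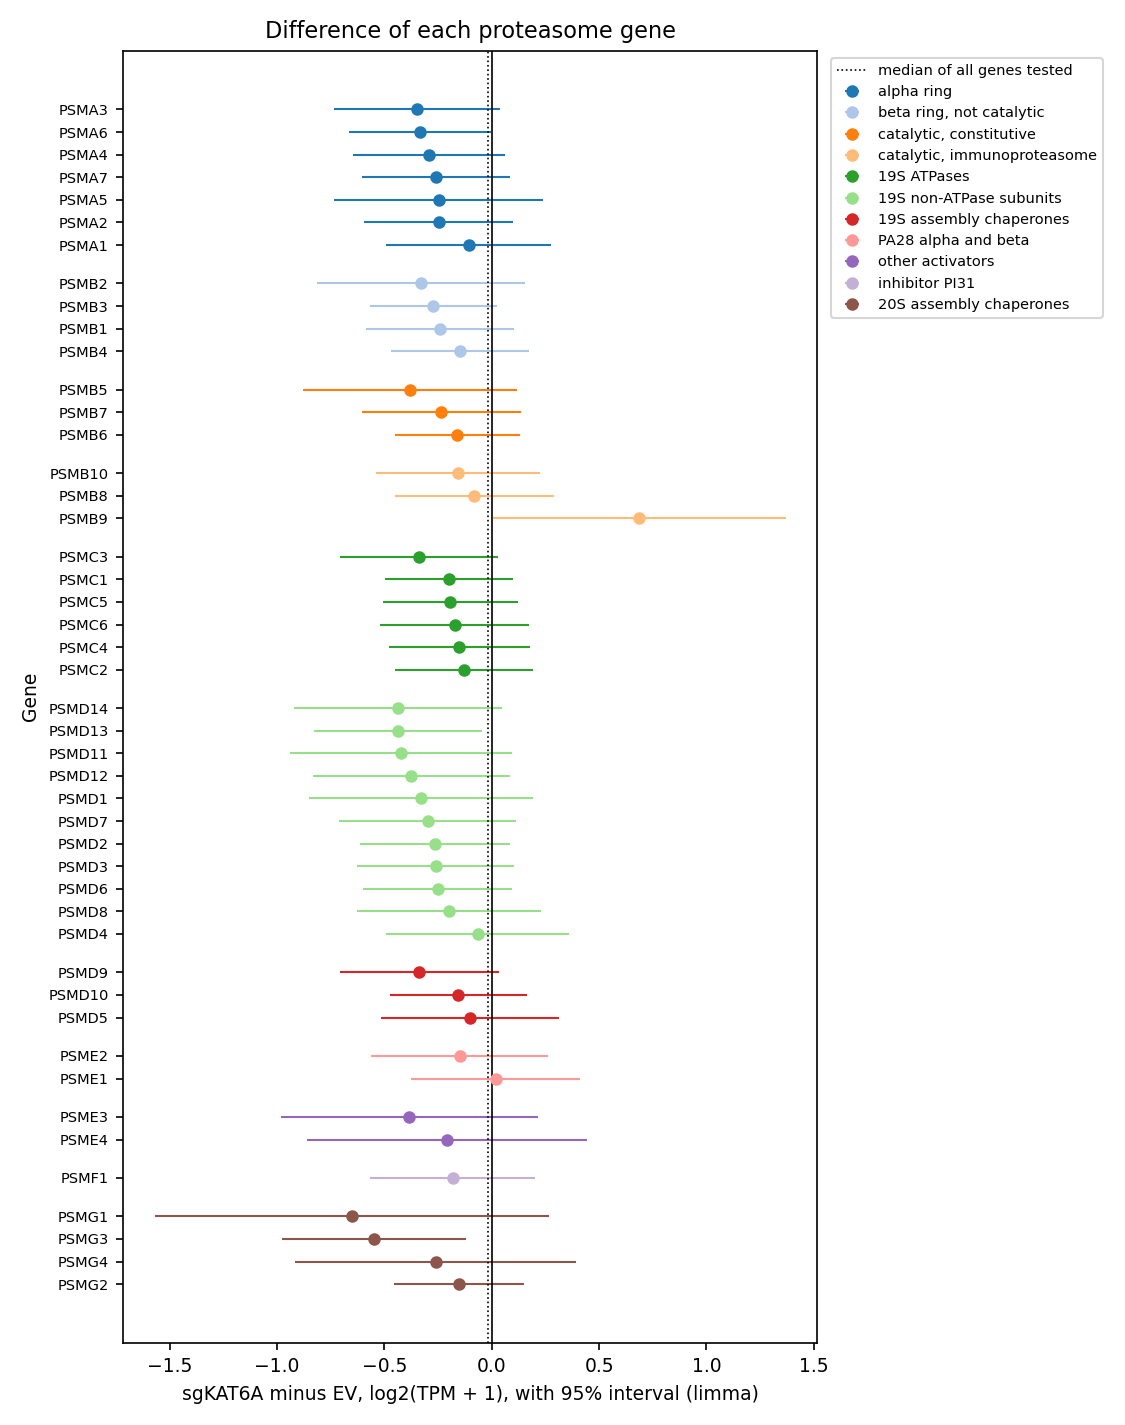
Difference between sgKAT6A and EV for each of the 46 genes tested, on the log2(TPM + 1) scale, with 95% intervals from limma and colours for the classes of subunit (n = 2 per group). All but PSMB9 and PSME1 lie below 0, and most intervals cross 0.

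Among the catalytic genes, PSMB5, PSMB6 and PSMB7 were lower in sgKAT6A without overlap, PSMB8 and PSMB10 overlapped between groups, and PSMB9 was higher. PSMB5, which carries the chymotrypsin-like site that bortezomib binds, was at 92.4 (replicate 1) and 79.1 TPM (replicate 2) in EV, against 73.7 and 58.0 TPM in sgKAT6A (log2 difference -0.38 ± 0.18 SE, 95% interval -0.88 to 0.12). PSMB6, with the caspase-like site, was at 147 and 146 TPM with EV and 129 and 134 TPM with sgKAT6A (-0.16 ± 0.11 SE, -0.45 to 0.13). PSMB7, with the trypsin-like site, was at 161 and 153 TPM in EV, against 144 and 123 TPM in sgKAT6A (-0.24 ± 0.13 SE, -0.61 to 0.13). The limma adjusted p was 0.784 for all 3. In GENCODE 29 on GRCh38, PSMB5 lies on chromosome 14 (23016543 to 23035230, minus strand), PSMB6 on chromosome 17 (4796144 to 4798503, plus strand) and PSMB7 on chromosome 9 (124353466 to 124415444, minus strand).

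In EV, PSMB8 and PSMB10 had RNA levels within the range of PSMB5, PSMB6 and PSMB7, whereas PSMB9 averaged 20.5 TPM. PSMB8, the counterpart of PSMB5, was at 130 and 133 TPM in EV and so above PSMB5 in both libraries, and at 135 and 114 TPM in sgKAT6A (log2 difference -0.08 ± 0.13 SE, limma adjusted p = 0.871). The direction for PSMB8 turned on 1 library, since the difference was 0.04 without sgKAT6A replicate 2. PSMB10, the counterpart of PSMB7, was at 149 and 134 TPM with EV and 136 and 118 TPM with sgKAT6A (-0.16 ± 0.14 SE, limma adjusted p = 0.792). PSMB8 lies in the MHC region of chromosome 6 (32840717 to 32844703, minus strand), next to PSMB9, and PSMB10 on chromosome 16 (67934502 to 67937087, minus strand).

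PSMB9, the counterpart of PSMB6, had the lowest level of the 6 genes PSMB5 to PSMB10 in every library. It was at 17.3 (replicate 1) and 23.7 TPM (replicate 2) in EV, against 28.3 and 38.8 TPM in sgKAT6A. All of its sgKAT6A values lay above its EV values, and in both groups replicate 2 was the higher library. The means were 20.5 ± 4.54 TPM in EV and 33.6 ± 7.37 TPM in sgKAT6A (SD, n = 2 each), with the sgKAT6A mean 1.64 times the EV mean. On the log2 scale PSMB9 differed by 0.69 ± 0.25 (SE, 95% interval 0.0043 to 1.37), which did not pass (limma adjusted p = 0.784). The PSMB9 gap between the EV libraries was 0.43 and that between the sgKAT6A libraries 0.44 on the same scale. Among the tested members, PSMB9 ranked 45 of 46 by mean level in EV and 37 in sgKAT6A.

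**Figure D3:**
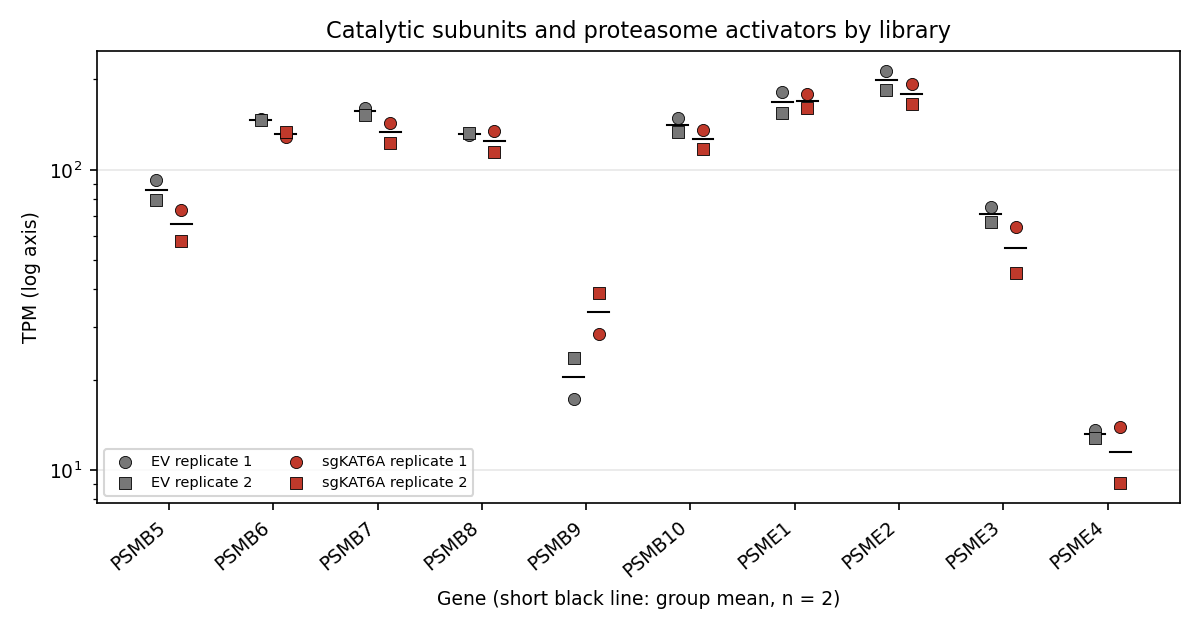
TPM on a log axis of the constitutive catalytic genes, their immunoproteasome counterparts and the activator genes in each library (grey for EV, red for sgKAT6A, circles for replicate 1, squares for replicate 2, short lines for group means of n = 2). PSMB9 has its red points at 28.3 and 38.8 TPM above its grey points at 17.3 and 23.7 TPM, and PSMB5, PSMB6 and PSMB7 have theirs below.

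Ratios within a library do not depend on how the library was scaled, so each immunoproteasome gene was set against its counterpart. The log2 ratio of PSMB9 to PSMB6 was -3.09 and -2.63 in EV and -2.19 and -1.78 in sgKAT6A, a difference of 0.88 that corresponds to a 1.83-fold higher ratio. That of PSMB8 to PSMB5 was 0.50 and 0.74 in EV and 0.87 and 0.98 in sgKAT6A, a 1.24-fold higher ratio. That of PSMB10 to PSMB7 was -0.11 and -0.19 in EV and -0.08 and -0.06 in sgKAT6A, a 1.06-fold higher ratio. All 3 ratios were higher in sgKAT6A without overlap, but by very different amounts, and for PSMB10 the gap between the EV libraries was as large as the group difference of 0.08. Without EV replicate 1 the difference for PSMB8 was 0.18 in place of 0.30 and that for PSMB10 was 0.12, and without EV replicate 2 that for PSMB10 was 0.036. PSMB5 and PSMB7 themselves differed by -0.38 and -0.24, where the median of all genes tested was -0.02. A gene at that median would also have a higher ratio to them. PSMB8 and PSMB10, at -0.08 and -0.16, lay below that median, and PSMB9, at 0.69, lay above it.

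PSMB8, PSMB9 and PSMB10 together made up 42.6% and 43.4% of the TPM of the 6 catalytic genes in EV and 46.3% and 46.3% in sgKAT6A. The sum of these immunoproteasome genes overlapped between groups, at 297 and 290 TPM in EV, against 299 and 271 TPM in sgKAT6A. The sum of PSMB5, PSMB6 and PSMB7 did not, at 400 and 378 TPM with EV and 346 and 314 TPM with sgKAT6A. The higher share came with a lower constitutive sum and not with a higher immunoproteasome sum. With 2 libraries in each group, the smallest two-sided p of an exact permutation test is 0.333, so no call was made for these ratios or the share. PSMB11, the thymus-specific catalytic subunit, was listed at 0 in 3 libraries and at 0.032 TPM in sgKAT6A replicate 1.

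**Figure D4:**
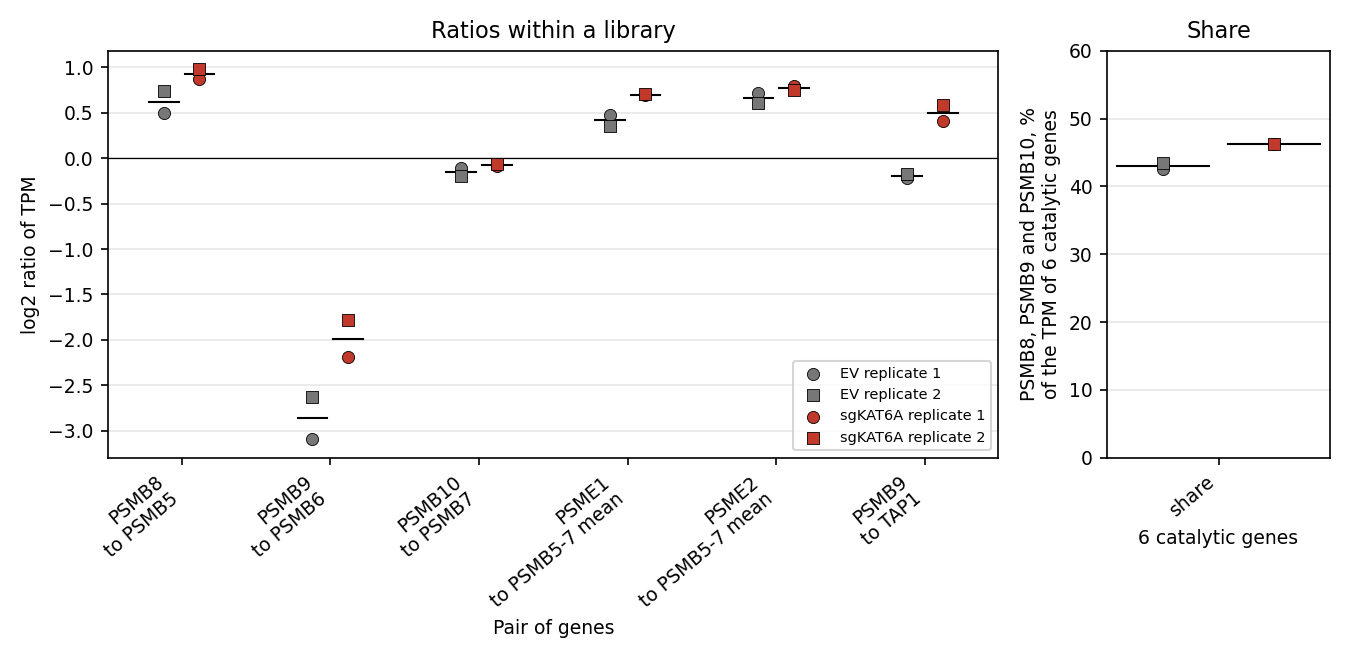
Left, log2 ratios of TPM within each library for the 3 catalytic pairs, for PSME1 and PSME2 against the mean log2 level of PSMB5, PSMB6 and PSMB7, and for PSMB9 against TAP1. Right, share of the TPM of the 6 catalytic genes taken by PSMB8, PSMB9 and PSMB10, in percent. In each column the red sgKAT6A points lie above the grey EV points. Among the ratios, the group means differ most for PSMB9 to PSMB6.

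Neither PA28 gene was lower without overlap. PSME1 (chromosome 14, 24136158 to 24138967, plus strand) was at 181 and 155 TPM in EV, against 180 and 160 TPM in sgKAT6A (log2 difference 0.02 ± 0.14 SE, 95% interval -0.38 to 0.41, limma adjusted p = 0.974), and its groups overlapped. PSME2 (chromosome 14, 24143362 to 24147570, minus strand), whose gene lies 4394 bases away, was at 213 and 184 TPM with EV and 193 and 165 TPM with sgKAT6A (-0.15 ± 0.15 SE, limma adjusted p = 0.799), also with overlap. For comparison, the 31 constitutive subunits of the core and regulatory particles had a median of -0.26. Of them, 28 were lower without overlap, where 23.2% of all genes were. Against the mean log2 level of PSMB5, PSMB6 and PSMB7, the ratio of PSME1 was 0.48 and 0.36 in EV and 0.69 and 0.70 in sgKAT6A. The same ratio for PSME2 was 0.71 and 0.61 in EV and 0.80 and 0.75 in sgKAT6A. Neither ratio overlapped between groups, and the group differences were 0.28 for PSME1 and 0.11 for PSME2, the latter 0.058 without EV replicate 2. PSME2 itself, at -0.15, lay below the median difference of all genes tested, -0.02.

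Of the other activators, PSME3 was lower without overlap and PSME4 was not. PSME3, which encodes the nuclear activator PA28 gamma and is not known as an interferon-induced gene, was at 75.2 and 67.0 TPM in EV, against 64.6 and 45.4 TPM in sgKAT6A (-0.38 ± 0.22 SE, limma adjusted p = 0.784). PSME4, which encodes the activator PA200, was at 13.6 and 12.8 TPM with EV and 14.0 and 9.08 TPM with sgKAT6A, with overlap. Its difference of -0.21 became 0.08 without sgKAT6A replicate 2. PSMF1, encoding the inhibitor PI31, was at 22.0 and 20.4 TPM in EV, against 19.9 and 17.2 TPM in sgKAT6A.

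The 2 most negative differences of all members belonged to PSMG1 and PSMG3, which help to assemble the core particle. PSMG1 pairs with PSMG2 to build the alpha ring. PSMG1 was at 61.2 and 47.8 TPM with EV and 45.3 and 25.5 TPM with sgKAT6A, a difference of -0.65 with a wide SE of 0.33. PSMG3, which pairs with PSMG4 in the same process, was at 52.8 and 49.0 TPM in EV, against 38.2 and 31.1 TPM in sgKAT6A (-0.55 ± 0.15 SE, 95% interval -0.98 to -0.12, limma adjusted p = 0.784). PSMG3 had the smallest unadjusted p of the members, 0.0237. PSMG2 was at 72.9 and 76.0 TPM in EV, against 66.9 TPM in both sgKAT6A libraries, and PSMG4 overlapped between groups. The differences within a pair of partners were unequal, -0.65 for PSMG1 against -0.15 for PSMG2 and -0.55 for PSMG3 against -0.26 for PSMG4. Among the chaperones of the regulatory particle, PSMD9 was at 23.1 and 21.3 TPM with EV and 18.4 and 16.3 TPM with sgKAT6A, and PSMD5 and PSMD10 differed by -0.10 and -0.16.

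Promoter sequence was examined because PSMB9 was higher without overlap and the other interferon-induced members were not. RefSeq promoter windows, 250 bases before to 50 bases after a gene start on GRCh38.p14, were matched by symbol for 42 of the 48 members (not for PSMA7, PSMB1, PSMB6, PSMB7, PSMD4 and PSMG3). The core of the interferon-stimulated response element, GAAA followed by any 2 bases and GAAA, was sought on both strands. A gene can have several windows, and a match in any of them was counted. By gene, 4.38% of the 27305 genes with a window held it, and by window 3.57% of 35116. It was held by 4 of the 5 genes PSMB8, PSMB9, PSMB10, PSME1 and PSME2, and by 3 of the 37 other members with a window (PSMA4, PSMB4 and PSMG4). The stretches below, read 5′ to 3′ on each gene's strand with the match in capitals, are shown for these 4 genes and for TAP1, the neighbour of PSMB9.
PSMB8: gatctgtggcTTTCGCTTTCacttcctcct
PSMB10: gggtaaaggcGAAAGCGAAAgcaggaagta
PSME1: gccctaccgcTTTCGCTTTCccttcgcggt
PSME2: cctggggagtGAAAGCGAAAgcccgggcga
TAP1: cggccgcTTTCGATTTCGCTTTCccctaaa
These lie at chr6:32844032-32844061 (minus strand), chr16:67936852-67936881 (minus), chr14:24136189-24136218 (plus), chr14:24146619-24146648 (minus) and chr6:32853816-32853845 (minus). The capitals begin at -4, -21, 5 and -28 bases from the start of PSMB8, PSMB10, PSME1 and PSME2, where the start is 0.

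PSMB9 and TAP1, which encodes a subunit of the peptide transporter, are transcribed away from each other from RefSeq starts 488 bases apart on chromosome 6, at 32854192 for PSMB9 and 32853704 for TAP1. No match to the response element core lay in the PSMB9 window, which was placed by the RefSeq start. The pair of overlapping matches in the TAP1 window spans -369 to -354 bases from the PSMB9 start, outside that window. The antioxidant response element core TGACNNNGC, to which NRF1 and NRF2 bind, was found for PSMB9 and for 15 of the 42 members in all, where 16.1% of all genes with a window hold it (13.3% of windows). The PSMB9 stretch is shown, on the plus strand at chr6:32853982-32854146, because this gene was the only member higher without overlap, with its TGACNNNGC match (read on the opposite strand) in capitals.
PSMB9: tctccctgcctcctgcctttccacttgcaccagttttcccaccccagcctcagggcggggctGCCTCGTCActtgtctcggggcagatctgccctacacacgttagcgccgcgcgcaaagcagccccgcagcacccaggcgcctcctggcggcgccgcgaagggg
A match describes letters in a window and is not a measured binding site.

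The groups of TAP1 overlapped. It was at 19.998 (replicate 1) and 26.7 TPM (replicate 2) in EV, against 21.4 and 25.8 TPM in sgKAT6A (log2 difference 0.02 ± 0.20 SE, 95% interval -0.54 to 0.59). The log2 ratio of PSMB9 to TAP1 was -0.21 and -0.17 in EV and 0.41 and 0.59 in sgKAT6A, so PSMB9 was below TAP1 in both EV libraries and above it in both sgKAT6A libraries. The group difference of 0.69 in this ratio exceeded the gaps between libraries of a group. PSMB8-AS1, a long non-coding RNA on the strand of PSMB9, was at 15.9 and 19.1 TPM in EV, against 18.3 and 19.3 TPM in sgKAT6A. In GENCODE 29 on GRCh38 the genes of this region overlap, PSMB9 (chromosome 6, 32844136 to 32859585, plus strand) sharing 2360 bases with PSMB8-AS1 and 8770 bases, the whole of TAP1, on the opposite strand. This PSMB9 start lies upstream of the RefSeq start at 32854192 that set the promoter window. The annotations therefore differ, with TAP1 inside PSMB9 in GENCODE and the RefSeq starts facing away from each other. Whether the libraries kept strand, and whether alternate haplotype copies of this region were in the index, is not stated in the labels or the processing notes, so the split of reads among these genes is uncertain.

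**Figure D5:**
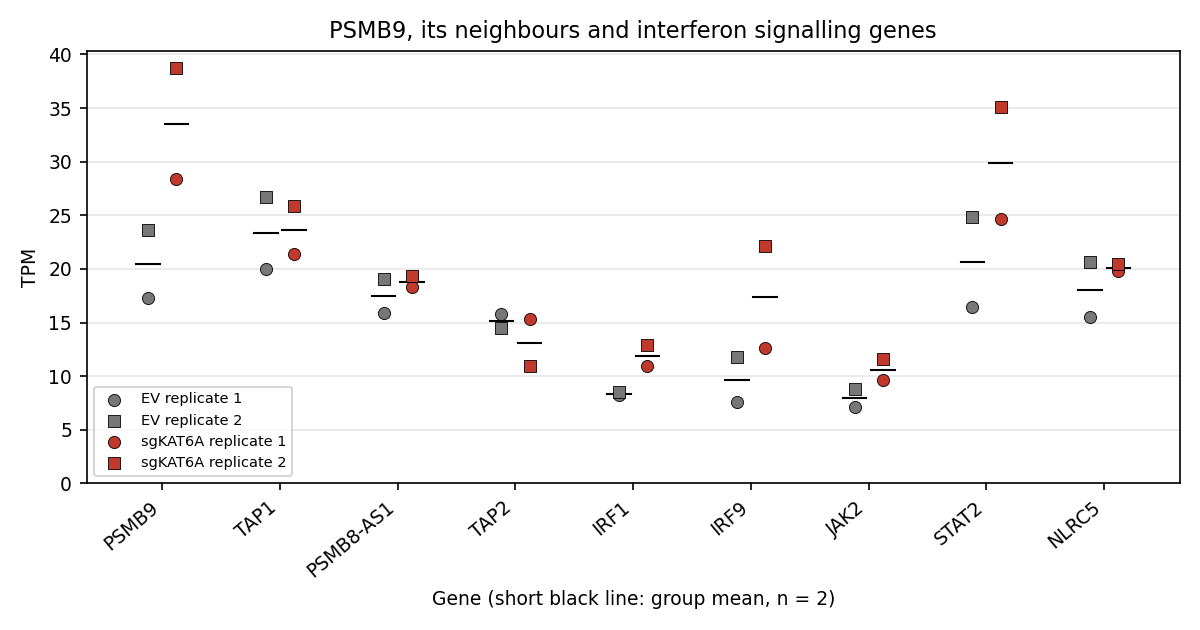
TPM in each library of PSMB9, of TAP1, PSMB8-AS1 and TAP2 from the same region, and of interferon signalling genes (grey for EV, red for sgKAT6A, circles for replicate 1, squares for replicate 2, short lines for group means of n = 2). The red and grey points are apart for PSMB9, IRF1, IRF9 and JAK2 and interleave for TAP1, PSMB8-AS1, TAP2, STAT2 and NLRC5.

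No interferon signalling gene passed with limma. Of 11 genes, 4 were higher and 1 was lower in sgKAT6A without overlap, where 14.4% and 23.2% of all genes were. IRF1, a transcription factor that binds the response element above, was at 8.23 and 8.51 TPM with EV and 10.9 and 12.9 TPM with sgKAT6A (0.46 ± 0.14 SE, adjusted p = 0.784). IRF9, the DNA-binding part of the type I interferon complex, was at 7.58 and 11.8 TPM in EV, against 12.7 and 22.2 TPM in sgKAT6A. IRF8, a myeloid partner factor, had lower values in sgKAT6A, at 210 and 214 TPM with EV and 181 and 172 TPM with sgKAT6A. NLRC5, the transactivator of MHC class I genes, was at 15.5 and 20.6 TPM in EV, against 19.8 and 20.4 TPM in sgKAT6A. Of the 21 interferon-stimulated genes tested, 8 were higher and 1 lower without overlap, where 14.4% and 23.2% of all genes were. Their median difference was 0.61, below the median gap of 0.87 between the sgKAT6A libraries (replicate 2 minus replicate 1). The gap was 0.37 in EV. By replicate number, the median difference was 0.51 for number 1 and 0.85 for number 2. UBA7, the enzyme that activates the ubiquitin-like protein ISG15, was at 7.42 and 8.08 TPM with EV and 15.2 and 16.1 TPM with sgKAT6A (0.93 ± 0.13 SE, limma adjusted p = 0.784). BST2 was at 204 and 226 TPM in EV, against 291 and 278 TPM in sgKAT6A. USP18, which removes ISG15, was at 3.97 and 3.37 TPM with EV and 6.15 and 4.55 TPM with sgKAT6A. OAS1 was at 0.917 and 1.00 TPM in EV, against 1.73 and 10.5 TPM in sgKAT6A. These 4 were higher without overlap, while 12 of the 21 overlapped between groups. ISG15 was among those 12, at 29.2 and 32.3 TPM in EV, against 28.3 and 38.5 TPM in sgKAT6A. Of the 14 peptide loading genes tested, 1 was higher (TAPBPL) and 1 lower (CALR) without overlap, beside the same shares of 14.4% and 23.2%. Their median difference was 0.08. TAPBPL, a peptide editor, was at 11.7 and 14.6 TPM with EV and 15.8 and 19.01 TPM with sgKAT6A. CALR, a chaperone of class I folding, was at 1065 and 1091 TPM in EV, against 961 and 815 TPM in sgKAT6A.

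Monocyte and macrophage markers had higher means in sgKAT6A, and their part in the PSMB9 level and in the lower constitutive subunits was not tested. All 13 tested had a higher mean in sgKAT6A, but only 2 were higher without overlap (LYZ and CD86), where 14.4% of all genes were. Their median log2 difference between groups was 0.91. The median gap between replicates (2 minus 1) was larger, at 1.56 in EV and 1.04 in sgKAT6A. The summed level of the 15 was 7653 and 9741 TPM in EV and 12180 and 12083 TPM in sgKAT6A, most of it LYZ. LYZ was at 7060 and 8068 TPM with EV and 10975 and 9500.0 TPM with sgKAT6A. CD86 was at 8.03 and 14.5 TPM with EV and 17.6 and 29.5 TPM with sgKAT6A. ITGAM, at 3.74 and 21.5 TPM in EV, against 12.3 and 52.1 TPM in sgKAT6A, overlapped between groups, with EV replicate 2 above sgKAT6A replicate 1. CD14 was at 1.08 and 29.3 TPM in EV, against 3.04 and 54.3 TPM in sgKAT6A, while CD163 and MRC1 stayed under 0.13 TPM.

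Proteasome partners without a PSM symbol were mostly lower. Of 16 genes, 11 were lower and 1 (UBQLN2) higher in sgKAT6A without overlap, where 23.2% and 14.4% of all genes were. Their median difference was -0.17. SEM1, a small lid subunit, was at 393 and 360 TPM with EV and 302 and 296 TPM with sgKAT6A (-0.33 ± 0.11 SE, limma adjusted p = 0.784). POMP, which completes assembly of the core, was at 128 and 133 TPM in EV, against 113 and 106 TPM in sgKAT6A. ADRM1, a ubiquitin receptor, was at 101 and 95.4 TPM with EV and 86.7 and 75.2 TPM with sgKAT6A, and UCHL5, the deubiquitinase it recruits, was at 23.9 and 23.7 TPM in EV, against 21.7 and 16.3 TPM in sgKAT6A.

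The NRF1 pathway raises proteasome transcription when degradation fails. NFE2L1, which encodes NRF1, the factor that drives these genes, was at 32.9 and 41.0 TPM with EV and 33.1 and 40.7 TPM with sgKAT6A, so that the gap between replicates was wider than that between groups. Of the 10 genes of this pathway, 1 was lower (VCP) and 2 were higher without overlap, with a median of -0.02. Of all genes tested, 23.2% were lower and 14.4% higher without overlap. VCP, the unfoldase needed to release NRF1, was at 103 and 105 TPM in EV, against 94.6 and 77.2 TPM in sgKAT6A. Of the 8 genes of ubiquitin and its handling by VCP, 4 were lower (UBB, RPS27A, UBA1 and UFD1) and 0 were higher without overlap, beside the same shares. UBB, a ubiquitin precursor, was at 607 and 692 TPM with EV and 529 and 529 TPM with sgKAT6A.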

How the data were processed

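Total RNA of MOLM-13 cells was sequenced as 4 libraries. The authors deposited 1 table with a TPM value for each gene symbol, and the submitters' processing notes name Salmon and hg38. The version of Salmon, the annotation, library strand and filters are not stated there. Titles gave each library's group and replicate number. No columns were left out.

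TPM values were used as log2(TPM + 1), and 12603 genes averaging 1 TPM or more were tested with limma 3.58.1 in R 4.3.3 (mean-variance trend, no covariate, two-sided, Benjamini-Hochberg over all genes, threshold 0.05). No count model was used, because TPM keeps no depth. A fold change on this scale understates the change of low genes. A gene is called without overlap where both libraries of a group lie beyond both of the other. Ratios used TPM without a pseudocount. Protein-coding genes were taken from RefSeq records, coordinates from GENCODE 29 on GRCh38 and promoter sequences from RefSeq on GRCh38.p14.

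Each member is counted in its class, but not every member has its values printed. Values are given in full for the catalytic and activator genes, for the gene with the smallest p and the largest difference in each class, for the 3 largest differences in each direction, for the 2 untested members and for genes among the 4 with the smallest p of each related list. PSMA1, PSMB1, PSMD4, PSMD11, PSMG2, NFE2L1, NLRC5, TAP1, PSMB8-AS1, ISG15, the printed cell type markers and the promoter motifs were added after values were seen. The members and lists were chosen with earlier results of these data known. GENCODE lists pseudogenes named after 10 members, PSMC1 (13) most of all, so reads of these may be split. Some genes of the related lists and 1 promoter motif are not reported here. Figures were drawn with matplotlib 3.10.9.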

Additional observations from a re-analysis of the deposited data

How the results depend on the processing

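The fit was repeated under a pseudocount of 0.1 or 5, no filter, a minimum mean of 5 TPM and no mean-variance trend. It was also repeated under quantile normalization, median-of-ratios scaling and protein-coding genes only. No gene passed in any of these. In each, 1 member was higher without overlap, where 12% to 19.5% of genes tested were. Lower without overlap were 27 to 35 members, where 16.2% to 27.3% of genes tested were. The count was 27 with quantile normalization, where 19.4% of all genes were lower. Without 1 library, 36 to 42 members were lower, where 33.1% to 44.1% of all genes were. Higher were 1 to 3 members (2, 2, 1 and 3 without EV replicates 1 and 2 and sgKAT6A replicates 1 and 2, where 19.5%, 39.2%, 36.7% and 27.6% of all genes were higher). The median of the constitutive subunits was lowest (-0.35) without sgKAT6A replicate 1 and highest (-0.18) without sgKAT6A replicate 2. PSMB9 was among the 4 members at an unadjusted limma p under 0.05, but not with no filter or without the trend, where all such members were lower. The members with such a p were 5 with no filter (4.37% of all genes) and 3 with a minimum mean of 5 TPM (3.59%) or median-of-ratios scaling (3.7%). They were 2 with quantile normalization (3.24%) or protein-coding genes only (3.34%) and 1 without the trend (3.67%). They were 0 without EV replicate 1 (1.42%), EV replicate 2 (1.91%) or sgKAT6A replicate 2 (2.41%), and 13 without sgKAT6A replicate 1, where 9.62% of all genes had such a p. With a library left out, the lone library of its group is assumed to vary like the other group.

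Signs changed for PSMD4 with quantile normalization (0.0015) and for 6 members when 1 library was left out. Over the 4 libraries left out, PSMA1 ran from -0.24 to 0.023 (without EV replicate 2), PSMD4 from -0.20 to 0.066 (the latter without sgKAT6A replicate 1, with 0.024 on leaving out EV replicate 2) and PSME1 from -0.094 (without EV replicate 2, and -0.064 without sgKAT6A replicate 1) to 0.13. Without sgKAT6A replicate 2 the highest values were reached by PSMB8 (-0.20 to 0.036), PSMD5 (-0.23 to 0.030) and PSME4 (-0.49 to 0.077). The cause was not tested. The PSMB9 to TAP1 ratio difference was 0.58 with a pseudocount of 5.

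The labels do not say that the replicate numbers pair the libraries, and with 2 numbers this could not be settled from the data (deviations from the group means correlated with r = 0.455 across 12603 genes). With the replicate block, 15 genes passed, 0 of them members, and 18 of 46 members had an unadjusted p under 0.05, as did 19.2% of all genes. In the paired differences of numbers 1 and 2, PSMB10 to PSMB7 was 0.024 and 0.13, PSME1 to the constitutive mean 0.21 and 0.35, and the immunoproteasome share 3.75 and 2.88 percentage points. TPM keeps no depth, which limits what can be said of PSMA8 and PSMB11.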
